A study of Mus musculus with 5 samples.

Results

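The nuclei described here carried transcripts of Cga and Tshb, the 2 subunit genes of thyroid-stimulating hormone (TSH), in single-nucleus RNA sequencing (snRNA-seq) libraries of mouse brain. The nuclei had been sorted by DAPI and against the neuronal protein NeuN and, according to the methods, the oligodendrocyte factor Olig2, to enrich microglia. The nuclei described were chosen by their own counts of unique molecular identifiers (UMIs, each standing for 1 captured RNA molecule): at least 3 UMIs of Cga, Tshb and Chga together, at least 1 of them from Cga or Tshb, and at least 2 UMIs of Rorb, Trpc5 and Rtl4 together. Of 9505 nuclei kept after quality limits, 50 met the rule, and 48 of the 50 came from 1 library, R241E replicate 1. The data comprised 5 libraries, each from 1 mouse. All 5 mice carried the tamoxifen-inducible driver Tmem119-creERT2, which the study describes as acting mainly in microglia and macrophages of the brain. In 2 mice (R241E) 1 copy of Cgas was the inducible R241E allele, a form of the DNA sensor cGAS that binds nucleosomes poorly, and 3 mice (WT) are titled wild type for Cgas. The study's results call the controls heterozygous, which gene counts cannot settle. Tamoxifen was given to mice of 8 to 10 weeks according to the methods, and a label text on H151 or DMSO injection of aged mice accompanies every library without assigning either. Since the nuclei lie nearly all in 1 mouse, nothing here compares the genotypes.

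TSH is a pair of glycoprotein chains: an alpha subunit encoded by Cga, which it shares with luteinizing and follicle-stimulating hormone, and a beta subunit encoded by Tshb. It is made by thyrotropes of the anterior pituitary and by specialized thyrotropes of the pars tuberalis, the sheet of pituitary tissue that wraps the stalk below the hypothalamus. Cells of the pars tuberalis are known for reading night length through the melatonin receptor Mtnr1a and for secreting TSH towards tanycytes, the glia lining the third ventricle, which carry the TSH receptor. Chga encodes chromogranin A, a protein of hormone granules, Rorb a nuclear receptor of the ROR family, Trpc5 a cation channel, and Rtl4 a protein derived from a retrotransposon.

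The sequences just upstream of the hormone genes and of Timeless, the clock-list gene with the largest ratio in these nuclei, are shown for the motifs they hold. Whether pituitary or clock factors act on these stretches was not tested. They are the 250 bases before the start given by RefSeq for GRCm38.p6, a release of the mouse build mm10 that the counts use, 5′ to 3′ along the gene, and capitals mark matches on either strand to 4 short motifs: TTATGTAA, the D-box bound by Hlf, Tef and Dbp, TAATCC, a core of PITX sites, GATAA, a core of GATA sites, and CACGTG, the E-box bound by CLOCK and ARNTL. The motifs have no overlap with each other here.
Cga, chr4:34893529-34893778, plus strand: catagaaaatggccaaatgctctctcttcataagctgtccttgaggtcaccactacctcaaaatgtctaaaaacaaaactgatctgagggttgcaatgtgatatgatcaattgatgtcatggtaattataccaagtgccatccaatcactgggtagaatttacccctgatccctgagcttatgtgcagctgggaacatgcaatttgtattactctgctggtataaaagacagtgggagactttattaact
Tshb, chr3:102782715-102782964, minus strand: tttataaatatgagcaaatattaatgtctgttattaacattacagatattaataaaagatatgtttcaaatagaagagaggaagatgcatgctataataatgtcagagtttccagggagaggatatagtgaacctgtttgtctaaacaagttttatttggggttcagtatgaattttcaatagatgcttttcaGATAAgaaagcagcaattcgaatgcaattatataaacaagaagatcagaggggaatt
Timeless, chr10:128237816-128238065, plus strand: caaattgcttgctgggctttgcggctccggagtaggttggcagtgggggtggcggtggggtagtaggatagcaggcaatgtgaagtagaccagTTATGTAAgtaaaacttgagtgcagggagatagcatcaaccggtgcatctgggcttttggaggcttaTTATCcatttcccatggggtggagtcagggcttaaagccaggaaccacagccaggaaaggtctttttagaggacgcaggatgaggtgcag
The windows of Tshb and Timeless lie inside the longer spans that the same annotation gives for these genes (chromosome 3, 102777398 to 102789082, and chromosome 10, 128232063 to 128252941), downstream of the outermost annotated start. Upstream of Tshb, 1 GATAA stood 57 to 53 bases before the start. The Timeless window held a D-box 157 to 150 bases before the start and GATAA, on the opposite strand, 90 to 86 bases before it. The Cga window held none of the 4 motifs. Over 27025 mouse promoters of this length the D-box was found in 0.862%, TAATCC in 6.38%, GATAA in 23.0% and CACGTG in 6.05%, and among the 18 of the 30 leading genes named further on that had a promoter in the table the counts were 2, 1, 3 and 2. A match is a description of the letters only.

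The 5 libraries held 4183709 to 10130667 UMIs, R241E replicate 1 being the deepest, and 1357 to 2403 kept nuclei each. The nuclei meeting the rule, called members here, made up 48 of 2403 kept nuclei of R241E replicate 1, or 2.00% (exact binomial 95% interval 1.48 to 2.64). R241E replicate 2 had 1 of 1357 and WT replicate 1 had 1 of 1534. WT replicates 2 and 3 had 0 of 1965 and 0 of 2246, which, counting 0 as up to 3 nuclei, allows shares of up to 0.153% and 0.134% (the exact binomial upper ends are 0.188% and 0.164%). These intervals, and all others here, cover counting error only. Tanycyte and ependymal nuclei, glia of the ventricle wall named from their markers, also lay mostly in that library: 142 nuclei of R241E replicate 1, or 5.91% (5.0 to 6.93), against 12 to 21 nuclei, or 0.579% to 1.37%, in each of the other 4 libraries. The labels call the tissue hippocampus and the extraction text names brain tissue. What part of the brain each piece held is not given in the sources used here, and its part in these shares was not tested. The libraries shared 13 cell barcodes over all pairs, none of them a member's.

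**Figure D1:**
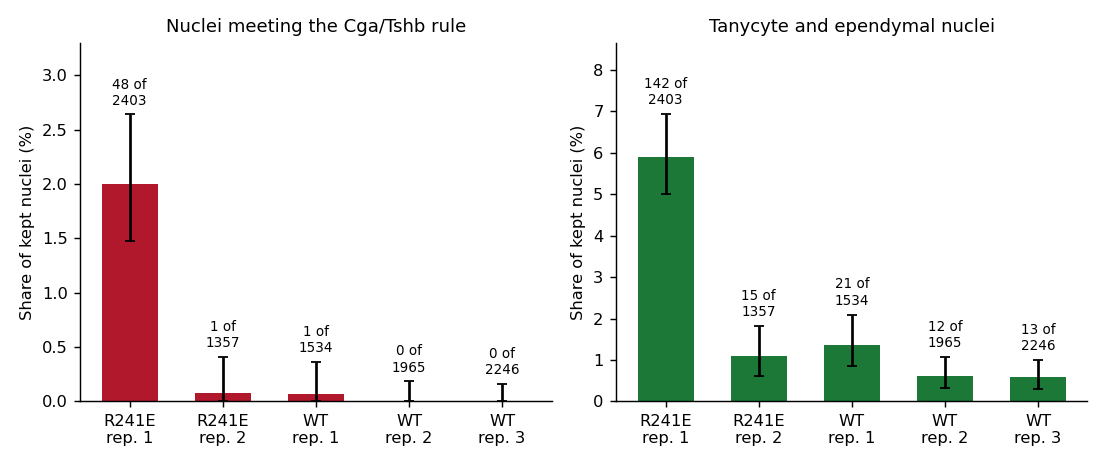
Share of kept nuclei (%) per library that met the Cga/Tshb rule (left) and that were named tanycyte and ependymal (right), with exact binomial 95% intervals as error bars and the counts above. R241E replicate 1 had 48 of the 50 members and 142 tanycyte and ependymal nuclei, and the other libraries had 0 or 1 member and 12 to 21 such nuclei.

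The counts that chose the nuclei are given first, as a description and not as a finding. Among the 48 nuclei of R241E replicate 1, Cga ran from 1 to 66 UMIs with a median of 4, and every nucleus had at least 1. Tshb ran from 0 to 57 UMIs with a median of 0. It was present in 21 of the 48 nuclei, all of which also had Cga, and 5 nuclei held 61.3% of its UMIs. Chga ran from 1 to 35 UMIs with a median of 11. In the second set, Rorb ran from 2 to 159 UMIs (median 36), Rtl4 from 4 to 103 (median 15) and Trpc5 from 0 to 43 (median 6.5, present in 46 nuclei). Summed over the 48 nuclei, Cga stood at 1450 counts per 1000000 UMIs (CPM), against 4.38 CPM over the other 2355 kept nuclei of the library. Tshb stood at 918 against 2.42 CPM and Chga at 1881 against 10.2 CPM. Few UMIs of the hormone genes lay elsewhere: of all UMIs in kept nuclei of the 5 libraries, members held 91.6% for Cga, 88.1% for Tshb and 78.7% for Chga, but 28.1% for Rorb, 36.5% for Trpc5 and 29.4% for Rtl4. By library, R241E replicate 1 held 458 Cga UMIs, R241E replicate 2 held 5, WT replicate 1 held 2, and WT replicates 2 and 3 held 0. Tshb had 287, 10, 14, 5 and 2 UMIs in the same order.

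Little lay near the thresholds. Exactly 1 member had the lowest permitted hormone sum of 3, with 3 Pitx1 and 4 Gata2 UMIs. Just outside, 3 nuclei of the library had a hormone sum of 2 with enough of the second set. They fell among astrocytes and had no UMI of Pitx1 or Gata2. No nucleus met the hormone part and missed the second part, and the lowest sum of the second set among the 48 nuclei was 6. Clustering of all kept nuclei placed all 50 members in 1 cluster of 54, of which they made up 92.6%, and without the 6 genes of the rule 98% of them still shared a cluster. The other 4 nuclei of that cluster were all from R241E replicate 1. They had hormone sums of 1 to 11 and, together, 1 UMI of Cga, 21 of Chga, 12 of Gata2 and 4 of Mtnr1a. The rule and the clustering used the same counts, so the match is no independent evidence. In all, 6 nuclei, 5 of them in R241E replicate 1, had at least 3 Chga UMIs and the second set but no Cga or Tshb. Of these, 3 lay in the same cluster and are among its other 4 nuclei given above.

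**Figure D2:**
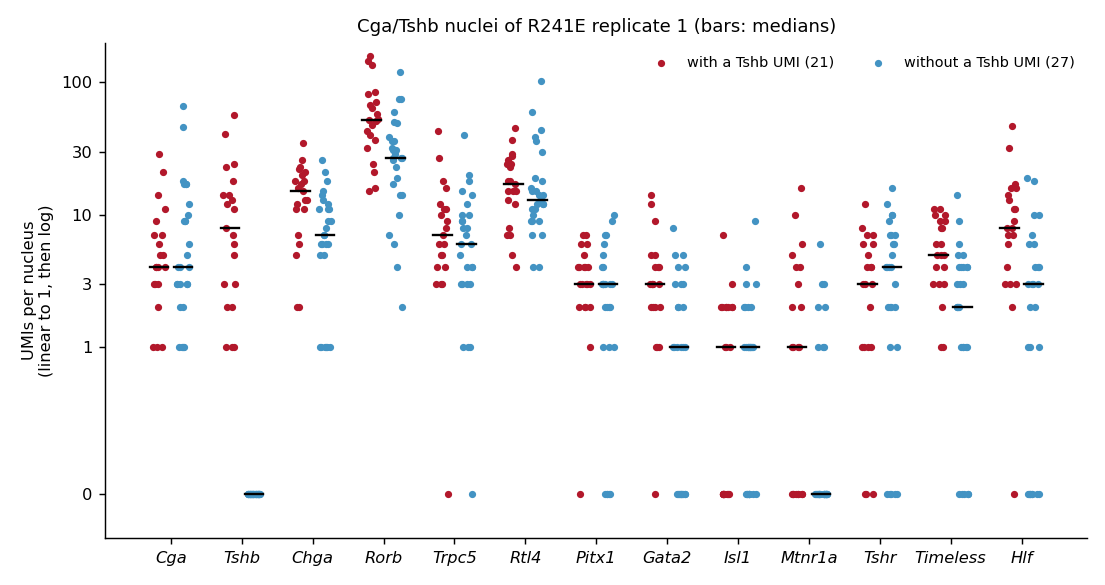
UMIs per nucleus (linear to 1, then log axis) of the 6 genes of the rule and of 7 others in the 48 Cga/Tshb nuclei of R241E replicate 1, split into the 21 with and the 27 without a Tshb UMI, each point a nucleus and bars medians. Medians of Cga are 4 in both. The highest single-nucleus values of Mtnr1a and Hlf, 16 and 47 UMIs, lie among nuclei with Tshb. Counts are not scaled for depth, and the nuclei with Tshb were deeper, with a median total of 7300 UMIs against 5401.

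To describe what these nuclei were, each gene's summed level was set against all other kept nuclei of the same library, and the ratio is given with its exact 95% interval. With 1 library on each side there is no test and no replicate check. A gene was counted as higher or lower past the fold where both sides together had at least 20 UMIs and the ratio was at least 4 or at most 0.25. Of 16114 genes with that many UMIs, 652 were higher (4.05%) and 1624 lower (10.1%). The interval lay wholly past the fold for 304 of the higher and 563 of the lower genes. The median log2 ratio over all 16114 was -0.07. The members are defined by these same counts, so the comparison describes the nuclei and tests nothing.

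The label pituitary was checked against transcription factors of pituitary development. Pitx1, the homeobox factor of the oral ectoderm from which the pituitary forms, was in 42 of 48 nuclei, with 0 to 10 UMIs each and a median of 3. Its level was 549 CPM against 1.15 CPM, a ratio of 476 (252 to 1011). Neurons and microglia of the library had no UMI of it, and tanycyte and ependymal nuclei had 2 (2.93 CPM). Gata2, a zinc finger factor of thyrotropes and gonadotropes, was in 37 nuclei (0 to 14 UMIs, median 2) at 449 against 1.96 CPM, a ratio of 229 (138 to 405). Isl1, a LIM homeobox factor, was in 30 nuclei at 221 against 1.15 CPM, a ratio of 192 (97.7 to 418). Lhx3, a LIM factor needed for the pituitary primordium, had 19 UMIs in 16 nuclei (142, 47.2 to 574). These were among the 6 higher genes of the 15 of 29 listed pituitary factors that had enough UMIs. None of the 15 was lower, though 3 of them had 0 UMIs in the 48 nuclei. The list's median log2 ratio was 1.04 with genes at 0 set to 3 counts. That median came to 0.38 without microglia among the other nuclei, 3.08 with the members and other nuclei of all libraries and 3.49 with a minimum of 5 UMIs. The first 2 of these settings gave Pitx1 a ratio of 301 and 991, and with all libraries Gata2 came to 377 and Isl1 to 573. Against tanycyte and ependymal nuclei alone, 6 of 12 listed factors with enough UMIs were higher and 4 lower. Against neurons alone, 5 of 10 were higher and 0 lower. Summed, the list stood at 4847 CPM in the 48 nuclei, 5238 CPM in tanycyte and ependymal nuclei and 2094 CPM in neurons. Foxl2, a forkhead factor of gonadotropes and thyrotropes, had 13 UMIs in 11 nuclei against 3 UMIs in all others, too few for the count. Eya1 and Eya3, transcriptional cofactors, had ratios of 2.05 and 2.93. Of the 8 markers set for a pituitary identity, 6 were each seen in over 10% of the nuclei, Pitx1, Lhx3, Eya1 and Eya4 among them, Lhx4 in 1 nucleus and Six6 in none, and Eya4 was below the other nuclei (ratio 0.318, 0.127 to 0.659).

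The other pituitary factors and hormones below were at or near 0. Pou1f1, the factor that drives thyrotropes, somatotropes and lactotropes of the anterior lobe, had 0 UMIs, as had Hesx1 of the early gland, Tbx19 of corticotropes, Nr5a1 of gonadotropes, Neurod1 and Pax7. A count of 0 here allows up to 3 UMIs, which is 10.4 CPM, or 6.25% of the nuclei. Lhb, Fshb, Gh and Prl, the other hormones of the anterior lobe, each had 0 UMIs, and so had the glycoprotein hormone genes Gpha2 and Gphb5. Pomc, the corticotrope precursor, had 3 UMIs in 3 nuclei against 22 UMIs in the other nuclei of the library, a ratio of 4.08 with an interval of 0.782 to 13.6, so that it was counted as past the fold on 3 UMIs. Insm1, a factor of neuroendocrine cells, had 14 UMIs in 12 nuclei against 5 elsewhere in the library. Among 7 markers of pituitary stem and folliculostellate cells with enough UMIs, S100b (0.146) and Aldh1a1 (0.238) were lower and the epithelial adhesion gene Epcam, with 12 UMIs in 10 nuclei, was higher (35.9, 14.2 to 92.8). Sox9 of that list and Sox2 of the factor list had 0 UMIs.

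**Figure D3:**
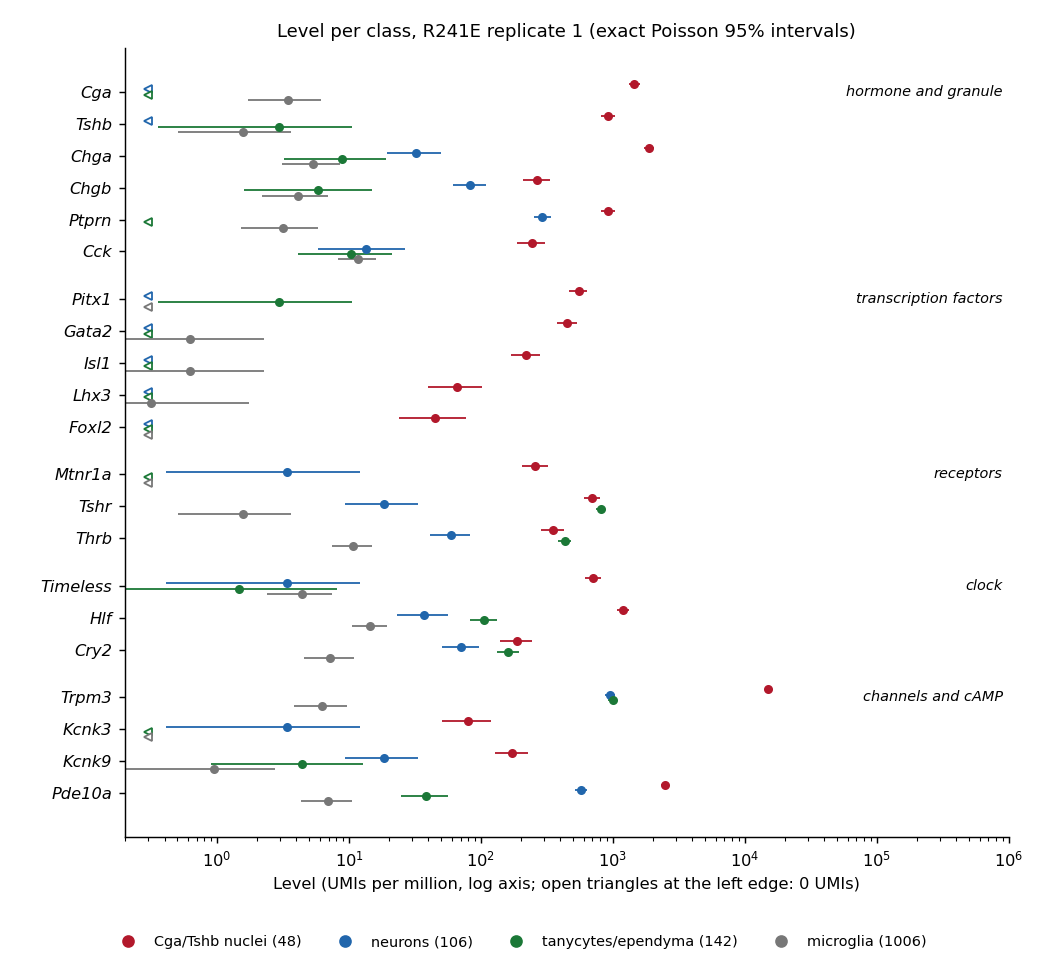
Summed level (CPM, log axis) of named genes in 48 Cga/Tshb nuclei, 106 neurons, 142 tanycyte and ependymal nuclei and 1006 microglia of R241E replicate 1, with exact Poisson 95% intervals, open triangles marking 0 UMIs. Pitx1 stood at 549 in the Cga/Tshb nuclei, at 2.93 in tanycyte and ependymal nuclei and at 0 in neurons and microglia. Tshr, at 697, lay beside the 808 of tanycyte and ependymal nuclei.

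Of receptors through which the pituitary is controlled, 1 of the 14 with enough UMIs was higher and 1 lower, with a median log2 ratio of -0.27, or -1.13 with genes at 0 ranked lowest. The median turned to 0.42 with all libraries and 0.73 with a minimum of 5 UMIs. The higher one was Mtnr1a, the melatonin receptor, which was in 21 of 48 nuclei with 0 to 16 UMIs, at 259 CPM (75 UMIs) against 0.692 CPM (6 UMIs), a ratio of 374 (164 to 1052), or 237 without microglia and 1363 with all libraries. By library it had 81 UMIs in R241E replicate 1, 8 in R241E replicate 2, and 0 in each of WT replicates 1 to 3. The 8 UMIs all lay in the 1 member of R241E replicate 2. WT replicate 1 had 1 member and WT replicates 2 and 3 had 0, so these counts are no comparison of the genotypes. Mtnr1b had 0 UMIs. Receptors that mark the anterior lobe's hypothalamic input had few UMIs: Trhr, the TRH receptor, had 1 UMI, Drd2 1 and Gnrhr 3 in a single nucleus, while Crhr1, Ghrhr and Ghsr had 0. Esr1, an oestrogen receptor, was the lower one, with 1 UMI (ratio 0.102). Thrb, a thyroid hormone receptor, was in 34 nuclei at 349 against 125 CPM, a ratio of 2.79 (2.25 to 3.42) that did not reach the fold.

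Tshr, the receptor of the hormone these nuclei encode, was present in 40 of the 48, with 0 to 16 UMIs and a median of 4. Its 697 CPM compared with 78.0 CPM in all other nuclei (ratio 8.94, 7.60 to 10.5, and 5.70 without microglia or 17.6 with all libraries), 808 CPM in tanycyte and ependymal nuclei, 18.6 CPM in neurons and 1.57 CPM in microglia. No other gene of thyroid hormone handling was higher past the fold. Dio2 and Dio3, deiodinases that activate and inactivate thyroid hormone, had 0 UMIs, as had Crym, which binds the hormone in the cell. Of the 8 genes in this list with enough UMIs, Tshr was higher and 3 were lower (Slc16a10, Slco1c1 and Thrsp). The list's median log2 ratio was -0.42 with genes at 0 set to 3 counts, and 4 of the 8 were at 0. It turned to 0.51 with a minimum of 5 UMIs and 0.09 with all libraries, and came to -1.68 with a minimum of 50 UMIs and -1.04 without microglia.

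Among 23 genes of the circadian list, all with enough UMIs, 4 were higher and none lower, with a median log2 ratio of 0.79. Without microglia among the other nuclei the median was 0.54. Against neurons alone 2 of 15 were higher and 0 lower, with a median of 0.68. Against tanycyte and ependymal nuclei alone 2 of 18 were higher and 0 lower, with a median of -0.02. Timeless, whose mammalian protein works at replication forks and is also placed in the clock, was in 43 of 48 nuclei with 0 to 14 UMIs and a median of 4. It stood at 708 against 5.08 CPM, a ratio of 139 (100.3 to 198), and at 3.38 CPM in neurons, 1.47 in tanycyte and ependymal nuclei and 4.40 in microglia. Hlf, a transcription factor that binds the D-box, was in 39 nuclei with 0 to 47 UMIs, at 1188 against 45.5 CPM (26.1, 22.5 to 30.3). The repressor gene Cry2 had 54 UMIs (4.25, 3.14 to 5.67). Without microglia among the other nuclei the ratio of Cry2 was 2.86. Per2 and Nr1d1 had ratios of 3.70 and 3.67 from 12 and 14 UMIs, Cry1 had 3 UMIs and Nfil3 none. Of the cell cycle list, Mki67 and Pcna had 1 UMI each and Top2a, Cenpf, Aspm and Mcm6 had 0, with Pcna lower (0.222) among the 5 that had enough UMIs.

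Genes of hormone granules and regulated secretion were, of the 27 lists, the one with the most higher genes, 14 of 29 with enough UMIs, against 1 lower and a median log2 ratio of 2.17, or 2.00 with genes at 0 ranked lowest. Ptprn, a membrane protein of dense-core granules, was in 44 nuclei with 0 to 25 UMIs, at 922 against 28.0 CPM (32.9, 27.5 to 39.3). Rab3b, a GTPase on secretory vesicles, stood at 262 against 4.73 CPM (55.5, 37.5 to 83.2), and Rab27b, which docks granules, at 166 against 5.42 CPM (30.6, 20.0 to 46.7). Rph3al, an effector of both GTPase families, had the largest ratio of the list, 202 (95.5 to 492). Without microglia among the other nuclei, Scg3, Snap25 and Baiap3 of these 14 came to 3.05, 3.81 and 3.72, and Ptprn, Rab3b, Rab27b, Rph3al and Rims2 to 21.7, 36.9, 19.8, 128 and 5.81. The granins Chgb and Scg2 had ratios of 27.4 and 10.2, and the priming factor Cadps2 one of 15.7 (13.2 to 18.6). Rims2, a scaffold of the release site, was in all 48 nuclei at 1312 against 145 CPM (9.05, 8.04 to 10.2). Other steps of peptide processing differed: Cpe and Pam, enzymes that trim and amidate peptides, had ratios of 1.04 and 0.555, and Pcsk2, a prohormone convertase, was lower (0.209, 0.0429 to 0.614), while its relative Pcsk1 had 10 UMIs and a ratio of 15.8. Of 26 neuropeptide genes, Cck, which encodes cholecystokinin, was the 1 higher among 11 with enough UMIs, at 242 against 9.58 CPM (25.2, 18.1 to 35.1) in 26 nuclei. In 20 of the 26 no UMI was seen.

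Trpm3, a cation channel opened by neurosteroids and heat, was in 47 of 48 nuclei with up to 239 UMIs. It stood at 15100 CPM against 1158 CPM in the other nuclei (13.04, 12.6 to 13.5, and 8.27 without microglia or 19.7 with all libraries), 956 CPM in neurons and 994 CPM in tanycyte and ependymal nuclei. Trpm3 was also among the leading genes of an astrocyte cluster, which had 164 nuclei in R241E replicate 1. Of 31 listed channel genes, with a median log2 ratio of 0.44 that came to -0.01 without microglia, 5 were higher and 6 lower. Also higher were Kcnj6 (16.6), Scn8a (4.90) and Cacna2d1 (4.45), the first coming to 5.68 with all libraries and the last 2 to 3.23 and 2.84 without microglia among the other nuclei. Among the lower were potassium channel genes used by many neurons, Kcnd2 (0.0497), Kcnq3 (0.0830), Kcnq5 (0.0686) and Kcnh7 (0.0248), as well as the calcium channel gene Cacna1e. In the list of cAMP and G protein signalling, the route by which melatonin and TSH receptors act, 4 of 29 were higher and 6 lower, with a median of -0.30. Pde10a, a phosphodiesterase that breaks down cyclic nucleotides, was in 40 nuclei at 2492 against 62.0 CPM (40.2, 35.9 to 45.1, and 26.5 without microglia). The cyclases Adcy5 and Adcy6 had ratios of 12.03 (9.10 to 15.8, and 7.82 without microglia) and 6.21 (3.98 to 9.38), and Pde7b one of 6.03, or 3.82 without microglia. Adcy2 had 0 UMIs against 138 CPM and Adcy8 2 UMIs, both lower, as were Pde3b and Pde8b.

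The genes with the largest ratios outside the rule, among those with at least 20 UMIs and present in at least 25% of the 48 nuclei, began with Gm281, a predicted gene on chromosome 14 (13828428 to 13914521, GRCm38.p6). It was in 29 nuclei with 86 UMIs, against 2 UMIs in all other nuclei, a ratio of 1287 (346 to 10800), or 669 as a mean over nuclei. Cldn7, a claudin of epithelial tight junctions, had 28 UMIs against 1 (838, 139 to 34260). Gm42765 had 30 UMIs in 20 nuclei and none elsewhere in the library, at least 299-fold higher. As this is a bound, its place relative to the others is not known. Pitx1, Mtnr1a, Gata2, Isl1, Rph3al and Timeless, described above, were among the 30. Ces1d, a carboxylesterase, had 125 UMIs in 31 nuclei (187, 116 to 317), and Apoa4 and Apoc3, apolipoprotein genes 5.2 kb apart on chromosome 9, had 31 and 22 UMIs with ratios of 186 and 109.7. B4galnt3, which adds the N-acetylgalactosamine found on pituitary glycoprotein hormones, had 46 UMIs in 23 nuclei (153, 74.0 to 355). Kcnk3 (98.3, 40.9 to 271) and Kcnk9 (65.1, 39.0 to 112) encode acid-sensitive potassium channels, Gng4 (81.9) a G protein subunit and Rgs9 (71.3) a regulator of G protein signalling. Scml2 and Phf19 encode Polycomb-associated proteins and had 92 and 23 UMIs. Cib4, of the calcium-binding CIB family, had 170 UMIs in 29 nuclei (149.6, 103 to 223), and Fam135b 228 UMIs in 39 nuclei (75.0, 58.6 to 96.7). With all libraries the ratios of Cldn7, Ces1d, Apoa4, Apoc3, B4galnt3 and Cib4 came to 2955, 574, 650.2, 410.5, 289 and 488, and that of Gng4 to 40.0, while Fam135b came to 49.6 without microglia.

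Of the 6 genes of the rule and these 30, 34 had a position in RefSeq, and 4 pairs of them lay within 500 kb of each other. The share of such pairs among all genes was not computed. Trpc5 (chromosome X, 144377327 to 144688180) and Rtl4 (144688209 to 145122414), both in the rule, lie 28 bases apart. Gm36372 (chromosome 12, 16205067 to 16232444) and Gm48606 (16232256 to 16239364) overlap by 189 bases, and reads of the 2 cannot always be told apart. They had 175 and 256 UMIs in 39 and 37 nuclei, with ratios of 276 (171 to 469) and 159.6 (117 to 222). Cib4 and Kcnk3 lie 42.3 kb apart on chromosome 5 and Apoa4 and Apoc3 as given above. The remaining leading genes were mostly predicted or unnamed transcripts: Gm31698, Gm48893, 5730419F03Rik, Gm20757, Gm12068 and 1700061H18Rik, with 28 to 66 UMIs and ratios of 93.1 to 314. How the ratios of these lists compared with all genes is shown in the plot of ratio against level.

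**Figure D4:**
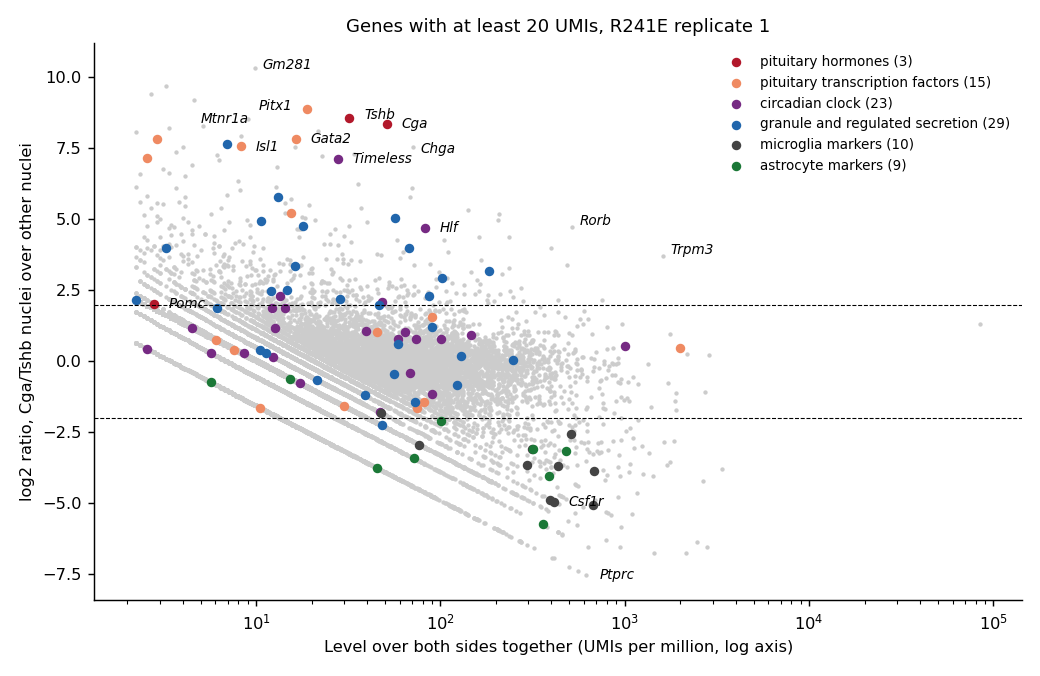
Each of 16114 genes by its level over both sides together (CPM, log axis) and its log2 ratio in the 48 Cga/Tshb nuclei over the 2355 other nuclei of R241E replicate 1, with members of 6 gene lists coloured, genes at 0 on 1 side set at 3 counts, and dashed lines at 4-fold. Pitx1, with a ratio of 476, lies near the top of the cloud beside Tshb and Cga, and microglia and astrocyte markers lie below its centre.

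At the other end of the range, with genes at 0 ranked at their bound, the 10 lowest ratios belonged to Ptprc, Frmd4b, Agmo, 4933406I18Rik, Lair1, Zeb2, Csmd3, Selplg, Edil3 and Tmeff2. Ptprc, which encodes the leukocyte antigen CD45, had 1 UMI against 633 CPM in the other nuclei (0.00546, 0.000138 to 0.0304), and Tmeff2 had 0 UMIs against 974 CPM, a ratio of at most 0.0106. Since 1006 of the 2403 kept nuclei were microglia, the comparison is weighted towards their genes, and without them Ptprc came to 0.0115 and Lair1 to 0.0513.

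Markers of the other cell types in the sort were summed per nucleus. Those of microglia came to 297 CPM in the 48 nuclei and 9514 CPM in microglia, with a median of 1 and at most 38 UMIs in a nucleus, and 9 of the 10 genes were lower, P2ry12 at a ratio of 0.873 once microglia were left out. Fcrls had 0 UMIs and Csf1r 4. Astrocyte markers came to 162 CPM against 1832 CPM in all other nuclei (7 of 9 lower, Aldh1l1 at 0, at most 33 UMIs in a nucleus). Oligodendrocyte markers came to 266 against 2942 CPM (6 of 9 lower, with Mog, Mag, Olig1, Olig2 and Opalin at 0). Macrophage (3 of 6 lower), lymphocyte (6 of 8 with enough UMIs), mural (5 of 7) and fibroblast markers (3 of 9) had at most 2 UMIs in any of the 48 nuclei for each list. Of OPC markers 2 of 5, and of monocyte and neutrophil markers 3 of 7, were lower, and Vcan, on both lists, had 56 UMIs and a ratio of 3.90. Of endothelial markers 2 of 7 were lower, Flt1 and Slco1a4, and Cldn5 and Cdh5 were at 0. Mecom, a zinc finger factor on that list, was higher with 71 UMIs in 16 nuclei, up to 22 in one (10.9, 8.18 to 14.4). Tanycyte and ependymal markers came to 148 CPM against 4095 CPM in the nuclei of that class, at most 3 UMIs in a nucleus, with Foxj1, Crym and Gpr50 at 0 and Col23a1 lower, although Rax had 7 and Lhx2 16 UMIs. Pinealocyte markers, set against the other melatonin-related gland, came to 24.2 CPM against 26.0 CPM in all other nuclei and 92.9 CPM in neurons, with none of the 4 that had enough UMIs past the fold, a median log2 ratio of 0.60 that came to -1.07 without microglia, and Tph1, Aanat and Crx at 0.

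Neuronal markers were uneven. Snap25, of the vesicle fusion machinery, was in 41 of 48 nuclei (4.92, 3.98 to 6.03), the 1 marker of 11 with enough UMIs that was higher. It stood at 380 CPM, against 623 CPM in neurons, and its ratio was 3.81 without microglia among the other nuclei. None of the 11 was lower against all other nuclei, but 4 of them had 0 UMIs in the 48 nuclei. Against the library's neurons alone, 6 of 8 markers were lower and 0 higher, with a median log2 ratio of -3.05. Summed, the list stood at 960 CPM in the 48 nuclei and 3508 CPM in neurons. Rbfox3, the gene of the NeuN protein by which nuclei were sorted out, had 2 UMIs, 6.90 CPM against 64.2 CPM in the library's neurons, and Syt1 stood at 148 CPM against 1714 CPM. Slc17a7, Slc17a6, Gad1, Gad2, Slc32a1, Th, Tph2 and Chat, which mark transmitter types, had 0 UMIs.

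The study's own subject, interferon signalling, is given for these nuclei as levels only. Of 29 interferon-stimulated genes 17 were lower than in the other nuclei of the library and none higher. Summed, they stood at 628 CPM in the 48 nuclei, 412 CPM in neurons, 1710 CPM in tanycyte and ependymal nuclei and 5285 CPM in microglia. A median of 2 and at most 32 UMIs per nucleus were found. Usp18 had 26 UMIs in 18 nuclei (0.803, 0.522 to 1.18), while Trim30a, Oas2, Isg15 and Irf7 had 1 each. Of the sensing genes Cgas had 1 UMI (0.0904, 0.00228 to 0.507) and Ifnb1 0. No library of the WT group holds enough of these nuclei for a level to be set beside these.

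Set against the neurons of the library alone, 273 of 7354 genes were higher (3.71%) and 873 lower (11.9%), and against tanycyte and ependymal nuclei 357 of 8064 were higher (4.43%) and 1034 lower (12.8%). Against neurons the granule list had 2 of 26 higher and 5 lower, and channel genes 2 of 26 higher and 14 lower. Against tanycyte and ependymal nuclei the granule list had 10 of 22 higher and 1 lower, with Ptprn at least 209.5-fold higher, since that class had 0 UMIs of it. Timeless stood at 209.6 (57.3 to 1742) over neurons and 483 (85.7 to 19150) over tanycyte and ependymal nuclei, which had 2 and 1 UMIs of it. Gm48606, with 256 UMIs, was at least 174.5-fold higher than in neurons, which had none. Other genes high over neurons were the long noncoding Gm20125 (197), Sntb1 (174), of the syntrophin family, and Pifo (127), of primary cilia. Over tanycyte and ependymal nuclei they were Tmem132d (428), Fat4 (421), a large protocadherin, Dpp10 (374) and Sphkap (261), each with 1 UMI in that class.

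Depth differed between the classes, with medians of 5826 UMIs in the 48 nuclei, 5458 in neurons, 4626 in tanycyte and ependymal nuclei and 3056 in microglia, so each nucleus was also thinned to 1000 UMIs. This left out 3 neurons and 9 microglia that had fewer. A Cga UMI was then found in 47.9% of the 48 nuclei (exact binomial 95% interval 33.3 to 62.8) and in 0.301% of microglia, a class that should lack it. Before thinning, a Cga UMI was in 100% of the 48 nuclei. Cga is a gene of the rule, so its shares describe how the nuclei were chosen and are no finding. The 27 nuclei without Tshb could meet the rule only with Cga, and the 21 with Tshb did not need it. Unthinned, 0.994% of microglia had a Cga UMI and 0.398% a Tshb UMI. Of genes outside the rule, Pitx1 was found in 41.7% (27.6 to 56.8), Gata2 in 37.5% (24.0 to 52.7), Mtnr1a in 22.9% (12.03 to 37.3) and Timeless in 41.7% (27.6 to 56.8) of the 48 nuclei, and in none of 103 neurons or 142 tanycyte and ependymal nuclei, where 0 allows up to 2.91% and 2.11%. Unthinned, a UMI of these 4 was in 87.5%, 77.1%, 43.8% and 89.6% of the 48 nuclei. Unthinned neurons had Mtnr1a in 1.89% and Timeless in 1.89%. Tanycyte and ependymal nuclei had Pitx1 in 1.41% and Timeless in 0.704% before thinning. Microglia thinned likewise had none for Pitx1, Gata2 and Mtnr1a, and 0.702% for Timeless. Tshr was found in 43.8% (29.5 to 58.8) of the 48 nuclei and 45.8% (37.4 to 54.3) of tanycyte and ependymal nuclei, intervals that overlapped, and in 0.971% of neurons. Pde10a, in 58.3% (43.2 to 72.4), was also found in 23.3% of neurons, and Trpm3, in 97.9% (88.9 to 99.95), in 32.0% of neurons and 49.3% of tanycyte and ependymal nuclei. Astrocytes, which include a cluster with Trpm3 among its leading genes, were not part of the thinned comparison.

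**Figure D5:**
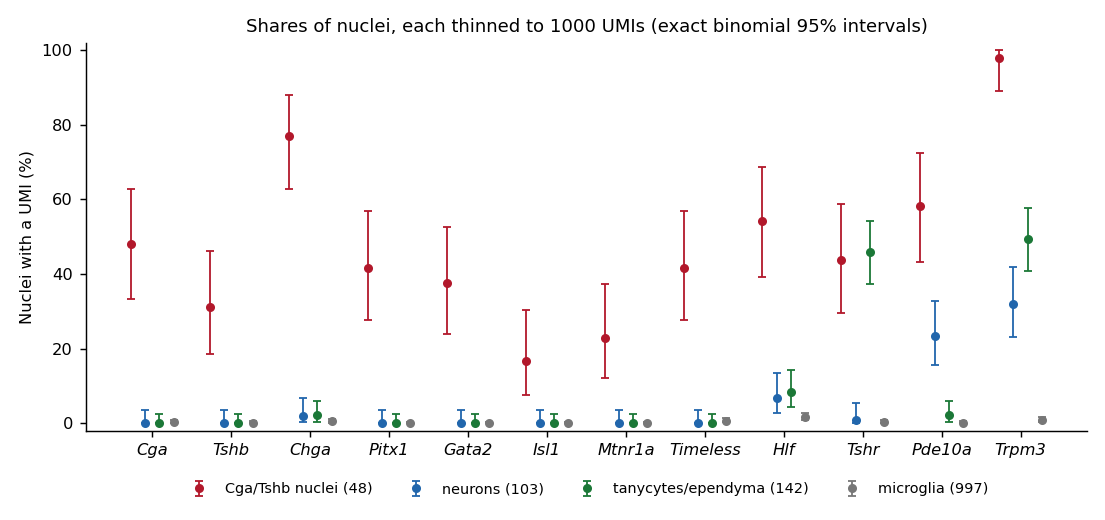
Share of nuclei (%) with a UMI of each gene after thinning every nucleus to 1000 UMIs, in 48 Cga/Tshb nuclei, 103 neurons, 142 tanycyte and ependymal nuclei and 997 microglia of R241E replicate 1, with exact binomial 95% intervals. At this depth Pitx1, Gata2, Mtnr1a and Timeless are found in 22.9% to 41.7% of the Cga/Tshb nuclei. None of the thinned neurons or tanycyte and ependymal nuclei has a UMI of these, and Tshr is shared with the latter.

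The 48 nuclei were not alike. Their totals ran from 2467 to 9583 UMIs and from 1430 to 3455 genes. The 21 nuclei with a Tshb UMI had a median of 7300 UMIs and the 27 without one 5401, and levels are given here as shares of each side's UMIs. The part of depth in the split was not tested. The split uses a count of the rule and is a description. A nucleus without Tshb could meet the rule only with Cga, while a nucleus with Tshb did not need Cga. The 3 nuclei with Scrublet scores above the 95th percentile of the others were all among the 27 without Tshb. Mtnr1a stood at 397 CPM (299.8 to 515) with Tshb, in 13 of 21 nuclei, and at 128 CPM (77.0 to 200) without, in 8 of 27. Timeless was at 879 (731 to 1048) and 545 (433 to 678) CPM, Hlf at 1680 (1473 to 1908) and 720.1 (590.1 to 870.2) CPM, and Gata2 at 588 (469 to 729) and 316 (232 to 421) CPM. The order was turned for Cga, at 1021 (861 to 1202) CPM with Tshb and 1857 (1645 to 2090) without, for Chgb, at 128 (75.6 to 202) and 397 (302 to 512), and for Tshr, at 553 (437 to 690) and 835 (694 to 995). Of the 276 Cga UMIs without Tshb, 112 lay in 2 nuclei. Without the 2 nuclei of most Cga on each side the levels were 702 CPM with and 1235 CPM without Tshb, and the medians per nucleus were 4 UMIs on both sides. Pitx1 was at 532 and 565 CPM, with intervals that overlapped. Of 2756 genes with at least 20 UMIs over the 48 nuclei and outside the rule, 11 were past the fold in the nuclei with Tshb and 46 in those without. Gm20125 stood out among the first, with 1177 CPM in 14 of 21 nuclei against 182 CPM in 8 of 27 (6.48, 4.29 at the lower bound), and Serinc5, a membrane protein, with 213 CPM in 16 of 21 against 26.9 CPM in 3 of 27. Among the second were Nlgn1, a synaptic adhesion gene, with 1232 CPM in 15 of 27 against 184 CPM in 7 of 21, Lingo2 with 1097 against 163 CPM and Dcc, a netrin receptor gene, with 444 against 63.8 CPM. Without the 3 nuclei of high Scrublet score, a check chosen after seeing the data like that on Cga, the levels without Tshb were 1301 CPM for Nlgn1, 1211 CPM for Lingo2 and 463 CPM for Dcc. These genes were picked after their values were seen, and some genes of the count rest on few nuclei, Gpc5 having 49 UMIs in 1 nucleus.

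Outside R241E replicate 1, the member of R241E replicate 2 had 2177 UMIs, among them 4 of Cga, 6 of Tshb, 15 of Chga, 1 of Pitx1, 8 of Mtnr1a, 10 of Timeless and 10 of Hlf. The member of WT replicate 1 had 2381 UMIs, with 2 of Cga, 8 of Tshb, 5 of Chga, 1 of Pitx1, 4 of Timeless, 5 of Hlf and 1 of Tshr, and none of Mtnr1a. Both thus had Tshb, Pitx1, Timeless and Hlf. Neither had a UMI of Gata2 or Isl1. With 1 nucleus each, no level is given for these libraries.

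Measures of quality for the 48 nuclei were a median of 2610 genes, against 1806 in the other nuclei of the library, and a median mitochondrial share of 0.0347%, against 0.0470%. Median Scrublet scores, which rise for nuclei that look like 2 merged profiles, were 0.0291 and 0.0357, and 3 of the 48 lay above the 95th percentile of the others. Scrublet called 1 of the 48 a doublet. Outside the members, R241E replicate 1 had 38 Cga UMIs in 33 nuclei, never more than 2 in one, or 4.38 CPM, and the other libraries had 0 to 0.258 CPM. Neurons and tanycyte and ependymal nuclei of R241E replicate 1 had no Cga UMI and 10 of 1006 microglia had one. Free RNA can leave such UMIs in nuclei that do not express a gene, and its part in the members' counts was not tested.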

How the data were processed

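Single-nucleus RNA sequencing was performed on 5 libraries of sorted mouse brain nuclei (10x Genomics 3′ chemistry, version 3.1), 2 from R241E and 3 from WT mice, each library from 1 mouse. The deposited values are raw UMI counts per gene and nucleus, made by the authors with Cell Ranger 7.0.0 against mouse mm10. Their notes also name Seurat. Strand handling is not given in the sources used here, so overlapping, antisense and near-identical genes cannot always be told apart.

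Nuclei with at least 200 and under 4500 genes, under 10000 UMIs and under 5% mitochondrial UMIs were kept, 9505 of 9748. The gene rule was then applied to each kept nucleus. Clusters came from scanpy 1.11.5 (counts scaled to 10000, 3000 variable genes, 30 components, 20 neighbours, Leiden resolution 1). A cluster took the class whose 3 highest markers, each in at least 10% of its nuclei, had a mean log2 fold of at least 3. This threshold was set after seeing the data. The lists of pituitary hormones and pituitary transcription factors were not among the classes, so no cluster could be named pituitary. The cluster that holds the members stayed unnamed, and its best score among the classes was 2.60, for neuron markers. Of its 54 nuclei, 52 were in R241E replicate 1, 2.16% of that library's kept nuclei. The others were 1, 1, 0 and 0 nuclei in R241E replicate 2 and WT replicates 1 to 3. Scrublet marked 42 of 9505 nuclei as doublets, 0.442%, too few for a working caller, so none was removed. Of the 42, 1 was a member, in R241E replicate 1.

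UMIs were summed over the 48 members and over each comparator of R241E replicate 1 and given as CPM. Exact Poisson intervals of levels, exact conditional intervals of ratios and exact binomial (Clopper-Pearson) intervals of shares, all at 95%, were computed with scipy 1.17.1. A sum of 0 was set to 3 counts as a bound, and a bound counted as past the fold only in its own direction. Nuclei of 1 mouse are not replicates, so no test was made. edgeR 4.0.16 served only for TMM factors on the counts, as an alternative scaling. The code for the ratios was tested on simulated data. Named genes were the 6 of the rule, the 30 with the largest ratio (at least 20 UMIs over the members, in at least 25% of them), the 10 with the lowest ratio among those expected at 20 UMIs or more, and genes of 27 lists. The members and lists were chosen with earlier results of these data known. Some genes of these sets enter the counts but are not reported by name here. A list of sex-linked transcripts was used as a check only. Promoters and positions were matched by symbol to RefSeq tables of GRCm38.p6.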

Additional observations from a re-analysis of the deposited data

Results flagged for a closer look

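The limits on genes and UMIs left out 243 nuclei over the 5 libraries, and 4 of these met the gene part of the rule. They are given because they carry the signal of the rule in nuclei outside the comparisons. R241E replicate 1 had 3 of 87 such nuclei, R241E replicate 2 had 0 of 24, and WT replicates 1 to 3 had 1 of 58, 0 of 45 and 0 of 29, which is no comparison of the genotypes. The 3 nuclei had 10539, 10821 and 11976 UMIs, with 28, 26 and 2 UMIs of Cga, 5, 14 and 38 of Chga and 15, 6 and 5 of Pitx1. None of them had a UMI of Tshb. The nucleus of WT replicate 1 had 29984 UMIs, 1 of Tshb, 2 of Chga and none of Cga or Pitx1.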

How the results depend on the processing

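The rule found 50 nuclei. It found 49 to 54 under other thresholds for either gene set or without the upper limits, 30 after thinning each nucleus to 1000 UMIs, which left out 374 shallower nuclei, and 2 to 50 when 1 library was left out, the 2 being without R241E replicate 1. Of genes past the fold 652 were higher and 1624 lower. With all libraries on both sides these were 1083 and 1576 (601 of the 652 were shared), with a minimum of 5 UMIs 1211 and 1624, and with a minimum of 50 UMIs 419 and 1624. The other alternatives (mean CPM per nucleus, TMM factors, no microglia among the other nuclei, without the members of highest Scrublet score, stricter members) gave 470 to 783 higher and 1564 to 1760 lower. Without microglia 428 of the 652 were shared. Over 27 gene lists 174 of 216 alternative medians stayed within 1.5 times the main one, over 76 named genes 522 of 597 alternative ratios stayed inside the main interval, and no gene past the fold changed direction in any of these. The medians of 7 lists turned sign under at least 1 alternative: receptors, thyroid hormone handling, ion channels and the pinealocyte, neuron, endothelial and tanycyte and ependymal markers. Apart from those given with the results, Snap25 and Cacna2d1 came to 3.88 and 3.89 with all libraries and Pde7b to 3.82 without microglia. Between 98% and 100% of members shared 1 cluster at 3 resolutions and without the genes of the rule, and at resolution 0.5 they made up 22.8% of that cluster. No paired analysis was possible because the results come from no test between groups. With 48 nuclei of 1 mouse the error between animals is unknown, and genes of low level cannot be seen: a count of 0 allows 10.4 CPM.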
